A study of Homo sapiens with 30 samples.

Results

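The BH3-only genes encode the proteins that start the mitochondrial pathway of apoptosis. The 8 genes described here are BBC3 (protein PUMA), PMAIP1 (NOXA), BCL2L11 (BIM), BIK, BMF, HRK, BID and BAD, which are 8 of the 39359 rows of the gene count table. They were taken by symbol as classical members of the family, by a rule that sets no threshold on their values, and all 8 passed the filter on low counts that left 21335 genes for testing. A BH3-only protein carries a single conserved BCL2 homology segment, with which it binds the groove of prosurvival proteins such as BCL2, BCL2L1 (BCL-XL) and MCL1. When the prosurvival proteins are occupied, or when certain BH3-only proteins bind BAX and BAK1 directly, BAX and BAK1 permeabilise the outer mitochondrial membrane, cytochrome c is released and the APAF1 apoptosome activates caspases. BBC3 and PMAIP1 are textbook transcriptional targets of p53. Other members are best known for control by growth factor signalling (BAD), by FOXO factors (BCL2L11) or by cleavage of the protein (BID).

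The cells were H1299, a human lung carcinoma line that lacks p53, transiently transfected with plasmids that carry GFP and, except in the control, a p53 insert, each under its own TRE-tight promoter, and sorted for GFP 6 h or 24 h later. The 5 conditions were pGFP (GFP alone), wild type p53, RW mutant p53 (with a mutated DNA-binding domain), p53 O6-meG and p53 TM. The p53 O6-meG plasmid carried a single O6-methylguanine on the transcribed strand, at the codon altered in the RW mutant, in cells whose repair protein AGT was active. The p53 TM condition used the same plasmid in cells in which AGT had been inactivated with 10 µM O6-benzylguanine before transfection, so that RNA polymerase could read the lesion (transcriptional mutagenesis, TM). Each condition had 3 libraries labelled as biological replicates per time, 30 in all. No source used here said that they came from separate cultures or transfections, and every group was 1 cell line with protein made from a plasmid, not from the genome.

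For 2 of the 30 libraries, both replicate 2 at 6 h, the start of the title gave one of p53 O6-meG and p53 TM, and the rest of the title and the genotype field gave the other. The column names of the count table repeat the start of the title. They were placed in no group, which left 2 libraries each for p53 O6-meG and p53 TM at 6 h, and their values are given separately. Known p53 targets outside the family were read beside the labels, in CPM (read counts relative to library size, scaled for library composition). CDKN1A, the p53 target that arrests the cell cycle, lay at 34.1 to 43.6 CPM in pGFP, 242 to 262 CPM in wild type p53 and 57.9 to 65.9 CPM in p53 TM at 6 h. MDM2, the p53 target that degrades p53, lay at 182 to 208 CPM, 1241 to 1362 CPM and 286 to 349 CPM in the same groups. Of the markers of the cell type, KRT8, KRT18 and VIM had 4412 or more counts in every library, while EPCAM (2 to 15 counts) and CDH1 (0 to 6 counts) were near 0 and PTPRC, a blood cell marker, had 0 to 2 counts. The lung lineage markers NKX2-1 (4 to 54 counts) and SFTPC (0 to 5 counts) and the endothelial marker PECAM1 (1 to 40 counts) were low too. In pGFP at 24 h against 6 h, PECAM1 was called higher (log2 2.41) and KRT18 lower. VIM was called higher with wild type p53 at 24 h. HBB, a red cell gene, had 5894 to 45032 counts and was called in none of the 17 comparisons.

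The members began at very different levels. Per kb of exon, in pGFP at 6 h, BAD (20.1 ± 2.10 CPM per kb, SD, n = 3) and PMAIP1 (18.6 ± 0.452) were highest and within each other's spread, followed by BID (9.99 ± 1.13), BCL2L11 (3.65 ± 0.422), BIK (1.60 ± 0.127), HRK (0.473 ± 0.009), BBC3 (0.352 ± 0.053) and BMF (0.129 ± 0.023). BBC3 therefore stood seventh of 8 before p53 was supplied. With wild type p53 at 24 h the order was PMAIP1 (29.9 ± 7.43), BAD (27.6 ± 2.75), BID (18.5 ± 1.89), BIK (11.6 ± 2.88), BCL2L11 (9.78 ± 3.16), BBC3 (5.38 ± 1.05), BMF (0.372 ± 0.026) and HRK (0.328 ± 0.086). PMAIP1 and BAD, BIK and BCL2L11, and BMF and HRK were each within their spread. In raw reads the scarcest members had 18 to 193 (BMF), 42 to 196 (HRK), 49 to 593 (BIK) and 43 to 1011 (BBC3) counts per library, and the other members at least 757 in every library.

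The promoters of the members were searched for the p53 response element, because the data bear on which members p53 moved. The element is a pair of adjacent 10-base repeats. A match kept both 4-base cores exact, had no spacer and at most 3 other mismatches, and lay within 1000 bases of an annotated start of a protein-coding transcript on hg38. The element is its own reverse complement, so both strands were covered. Matches were found for BBC3 and PMAIP1 and for none of the other 6 members. At the canonical start this was 2 of 8 members (25%), beside 625 of all 19962 protein-coding genes (3.13%) in windows of the same size. BBC3 and PMAIP1 were textbook p53 targets before the search, so these shares are a description and no finding about the family. Each match is printed below on the strand of its gene, with the 20-base match in capitals and 5 flanking bases on each side.
BBC3, chr19:47231315-47231344, minus strand: cgcgcCTGCAAGTCCTGACTTGTCCgcggc
PMAIP1, chr18:59899544-59899573, plus strand: tttctGGGCTTGTTTACCCAAGTCTctaat
The BBC3 match (3 mismatches) was centred 130 bases before the canonical start and lay in an intron of 3 of the 6 annotated BBC3 transcripts and in no exon. The PMAIP1 match (2 mismatches) was centred 438 bases before the canonical start, upstream of all 3 annotated transcripts. A match is a description of the letters, and binding was not measured. The same search matched the known p53 target CDKN1A only at starts that are not canonical, and did not match MDM2. A missing match therefore does not show that a member is not a target of p53.

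Wild type p53 against pGFP asked which members respond to p53 and when. At 6 h, 4 of the 8 members rose, BBC3, PMAIP1, BIK and BID, while 10.3% of all genes tested were called in either direction at adjusted P below 0.05. At 24 h, 7 of 8 were called, 6 higher and BMF lower, beside 34.9% of all genes. The median log2 fold change of the 8 members was 0.64 at 6 h and 1.15 at 24 h, beside 0.02 and 0.01 over all genes tested. Counting only differences of at least 2-fold (differentially expressed genes, DEGs), BBC3 was the 1 member at 6 h, and BBC3, BIK, BID, PMAIP1 and BCL2L11 were the 5 at 24 h, beside 4.48% and 11.2% of all genes. In these bulk libraries a higher level per cell and a larger share of cells expressing a gene cannot be told apart.

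**Figure D1:**
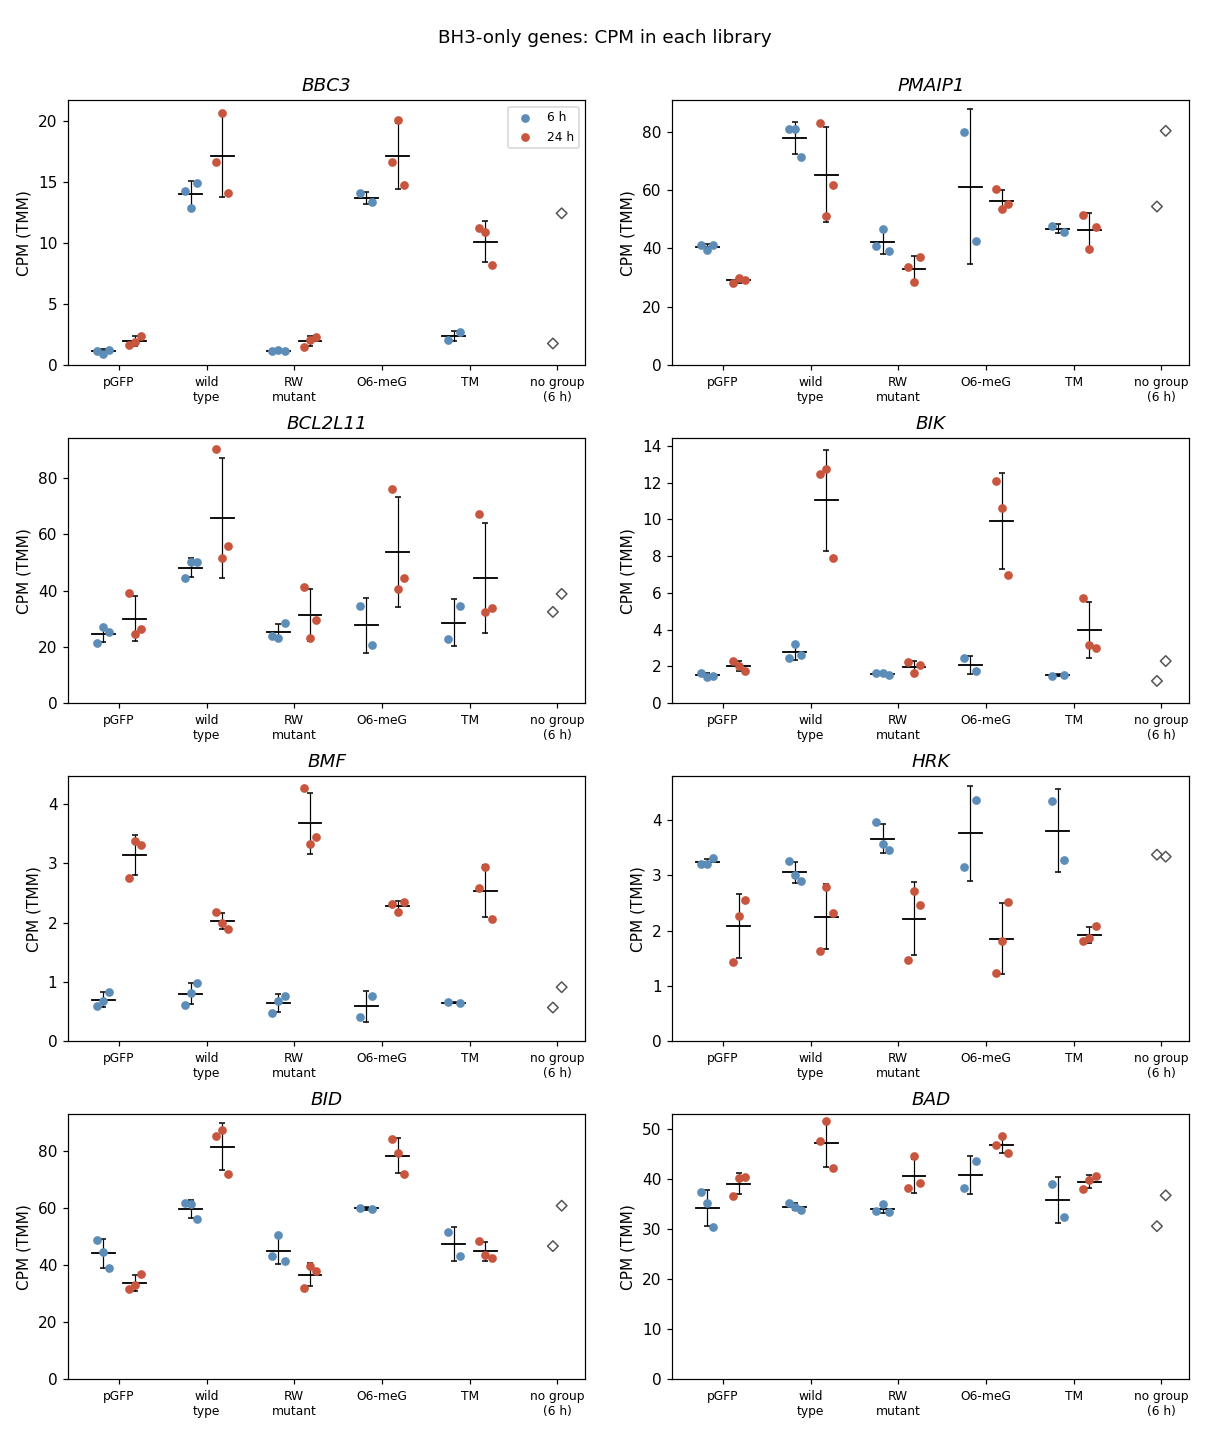
Level of each BH3-only gene in every library, in composition-scaled CPM, by condition at 6 h and 24 h. Points are libraries, bars are the group mean ± SD, and open diamonds are the 2 libraries at 6 h with conflicting labels. BBC3 lies at 0.94 to 2.41 CPM in pGFP and at 12.8 to 20.7 CPM in wild type p53, and BMF is the member that is lower with wild type p53 at 24 h.

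BBC3 (chr19:47220822-47232766, minus strand, hg38), whose product binds all the prosurvival proteins, had the largest response of the 8. Its 6 h libraries read 1.15, 0.94 and 1.27 CPM in pGFP and 14.3, 12.8 and 14.9 CPM in wild type p53. At 24 h they read 1.65, 1.88 and 2.41 CPM in pGFP and 16.6, 20.7 and 14.1 CPM in wild type p53. The groups were far apart at both times. The fold change was 12.4 at 6 h (log2 3.63, SE 0.19, 95% interval 3.25 to 4.02, adjusted P = 3.61e-13) and 8.62 at 24 h (log2 3.11, SE 0.18, adjusted P = 1.21e-12), and the change of the response between the times (−0.52, adjusted P = 0.27) did not pass the test. The mean with wild type p53 was 14.01 ± 1.06 CPM (SD, n = 3) at 6 h and 17.1 ± 3.34 CPM at 24 h, so most of the BBC3 level was present in the earlier samples. Its exons share 80 bases with MIR3190 on the opposite strand, a miRNA with 0 to 8 counts.

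PMAIP1 (chr18:59899996-59904305, plus strand), whose product mainly binds MCL1 and BCL2A1, was abundant before p53 and rose about as much at both times. It read 41.1, 39.4 and 41.2 CPM in pGFP and 81.0, 80.7 and 71.3 CPM in wild type p53 at 6 h, a 1.91-fold difference (log2 0.94, SE 0.17, adjusted P = 0.000255). At 24 h it read 28.1, 30.0 and 29.3 CPM in pGFP and 83.1, 51.2 and 61.6 CPM in wild type p53, a 2.24-fold difference (log2 1.16, SE 0.17, adjusted P = 5.14e-06). No wild type p53 library overlapped pGFP, and replicate 1 was the highest wild type p53 library at 24 h.

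BIK (chr22:43110750-43129712, plus strand), an endoplasmic reticulum protein that binds BCL2 and BCL2L1, was the late member. At 6 h it read 1.66, 1.44 and 1.46 CPM in pGFP and 2.44, 3.19 and 2.64 CPM in wild type p53 (1.81-fold, log2 0.85, SE 0.24, adjusted P = 0.0201). That call was lost without pGFP replicate 2, pGFP replicate 3 or wild type p53 replicate 2 (adjusted P 0.0775 to 0.104). At 24 h it read 2.31, 2.02 and 1.74 CPM in pGFP and 12.5, 12.8 and 7.88 CPM in wild type p53 (5.46-fold, log2 2.45, SE 0.24, adjusted P = 5.29e-09). The response was 3.02-fold larger at 24 h than at 6 h (log2 1.60, SE 0.34, adjusted P = 0.00441). BIK was 1 of 2 members whose response to wild type p53 changed between the times, beside 6.49% of all genes.

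BID (chr22:17734138-17774770, minus strand), which is cut by caspase 8 into the form that engages BAX and BAK1, was the other. At 6 h it read 48.9, 44.5 and 39.0 CPM in pGFP and 61.7, 61.3 and 56.2 CPM in wild type p53 (1.35-fold, log2 0.44, SE 0.10, adjusted P = 0.00431). Without pGFP replicate 3 the adjusted P was 0.0508. At 24 h pGFP read 31.5, 33.0 and 37.0 CPM and wild type p53 85.3, 87.5 and 72.1 CPM (2.41-fold, log2 1.27, SE 0.10, adjusted P = 3.97e-10). Its response grew 1.78-fold between the times (log2 0.83, SE 0.15, adjusted P = 0.000997), and over the same time BID fell in pGFP.

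BCL2L11 (chr2:111119378-111168444, plus strand), whose product binds every prosurvival protein and can engage BAX directly, was higher in each wild type p53 library than in any pGFP library of the same time. At 6 h pGFP read 21.5, 27.1 and 25.3 CPM and wild type p53 44.4, 49.97 and 50.1 CPM (log2 0.97, SE 0.31, adjusted P = 0.0541, not called). It was called when only the groups compared were fitted (adjusted P = 7.62e-07) and under 4 other alternatives. At 24 h pGFP read 39.2, 24.7 and 26.2 CPM and wild type p53 90.4, 51.5 and 55.8 CPM, a 2.20-fold difference (log2 1.14, SE 0.31, adjusted P = 0.00699). Replicate 1 was the highest library in all 5 conditions at 24 h, and the call there was lost without wild type p53 replicate 1 (adjusted P = 0.0707). Part of the BCL2L11 exons (727 bases) overlaps MIR4435-2HG on the opposite strand, and the strand setting of the counting was not given. MIR4435-2HG, looked up after the data were seen, had log2 differences of 0.02 (adjusted P = 0.982) and −0.00 (adjusted P = 0.993) between wild type p53 and pGFP at 6 h and 24 h.

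BMF (chr15:40087890-40108892, minus strand), a protein held at the cytoskeleton until it is released to bind BCL2, went the other way at 24 h. It read 2.76, 3.38 and 3.31 CPM in pGFP and 2.17, 2.00 and 1.90 CPM in wild type p53, a 1.56-fold lower level (log2 −0.64, SE 0.19, adjusted P = 0.0105) with no overlap of the groups. Its exons share 461 bases with BMF-AS1 on the opposite strand, which was not analysed here. At 6 h BMF lay at 0.588 to 0.836 CPM in pGFP and 0.609 to 0.973 CPM in wild type p53 (log2 0.21, adjusted P = 0.756). With the replicate number as a block, the change of the BMF response between the times passed the test (log2 −0.84, adjusted P = 0.016), which it did not without the block (−0.84, adjusted P = 0.0929).

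BAD and HRK moved least. BAD (chr11:64269830-64284704, minus strand), which is held inactive by survival kinases and binds BCL2 and BCL2L1, read 36.7, 40.2 and 40.3 CPM in pGFP and 47.6, 51.6 and 42.2 CPM in wild type p53 at 24 h (1.21-fold, log2 0.27, SE 0.09, adjusted P = 0.0161). Its call was lost without pGFP replicate 1, wild type p53 replicate 1 or wild type p53 replicate 2 (adjusted P 0.0801 to 0.109). Of the BAD exons, 404 bases overlap GPR137 on the opposite strand, which had a log2 difference of −0.12 in the same comparison (adjusted P = 0.205). HRK (chr12:116856144-116881441, minus strand), best known in neurons, lay at 1.43 to 2.55 CPM in pGFP and 1.62 to 2.80 CPM in wild type p53 at 24 h, with overlapping groups (log2 0.11, 95% interval −0.39 to 0.61, adjusted P = 0.776).

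RW mutant p53 against pGFP asked whether the members respond to a p53 with a mutated DNA-binding domain. The edgeR test called 0 of the 8 members at 6 h and 0 at 24 h, none had an unadjusted p below 0.05, and DESeq2 called 0 as well. Over all genes 0.00469% were called at 6 h and 0.00469% at 24 h, none of them a member. At 6 h the members' log2 differences lay between −0.12 and 0.17. The 24 h values lay between −0.03 and 0.22. BBC3 read 1.17, 1.22 and 1.16 CPM at 6 h and 1.51, 2.07 and 2.28 CPM at 24 h, and its groups overlapped pGFP both times. All comparisons against pGFP at a given time share the same 3 pGFP libraries.

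**Figure D2:**
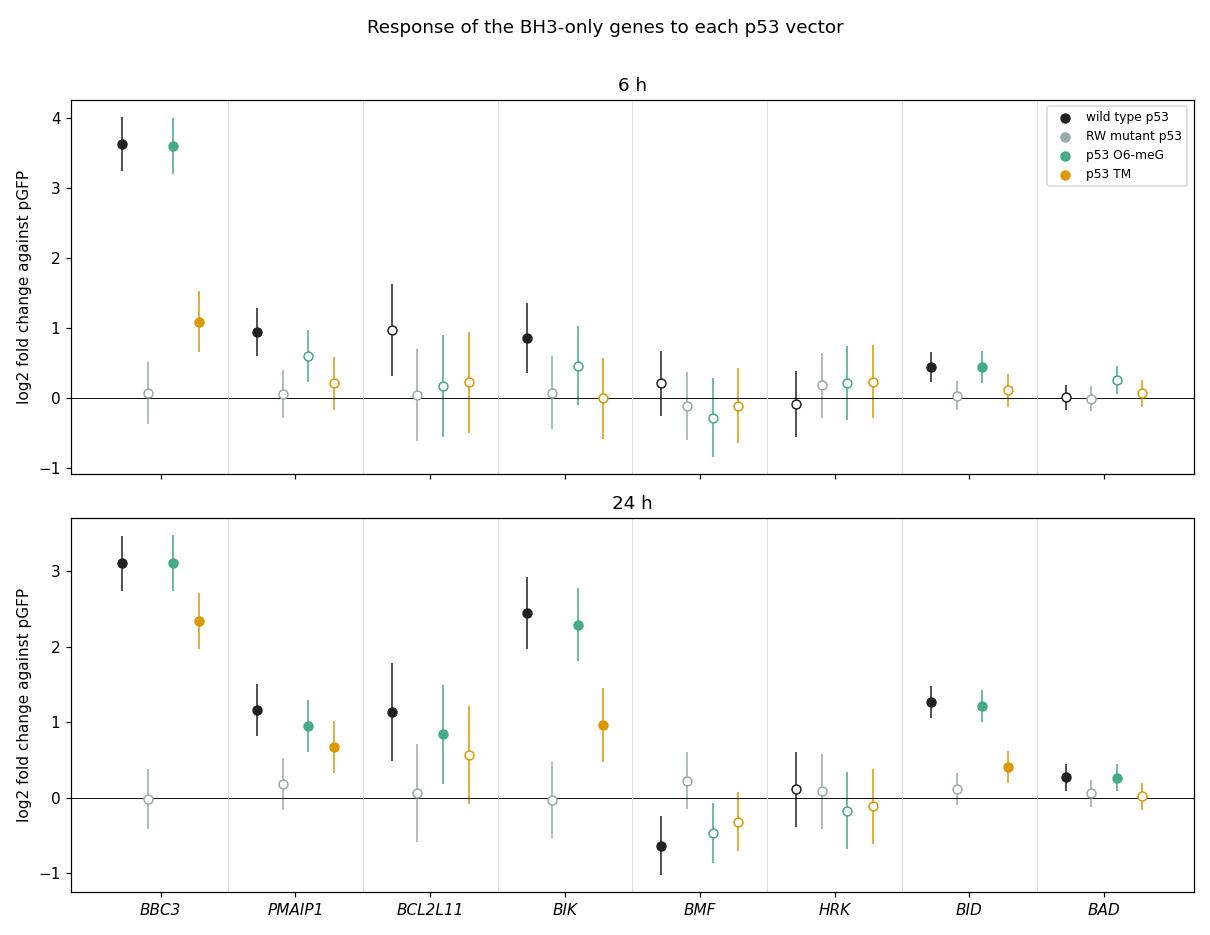
Log2 fold change of each BH3-only gene against pGFP for the 4 p53 plasmid conditions at 6 h and 24 h, with 95% intervals from edgeR, and filled points at adjusted P below 0.05. The RW mutant p53 points run from −0.12 to 0.22, and p53 TM lies below wild type p53 for BBC3 at both times (1.09 against 3.63 at 6 h, 2.34 against 3.11 at 24 h).

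With p53 O6-meG, where AGT can repair the lesion, 2 of 8 members rose over pGFP at 6 h (4.80% of all genes were called) and 6 of 8 at 24 h (29.4%). BBC3 read 14.1 and 13.4 CPM at 6 h (12.1-fold over pGFP, log2 3.60, adjusted P = 2.36e-12) and 16.6, 20.1 and 14.8 CPM at 24 h (8.64-fold, log2 3.11, adjusted P = 1.22e-12). The other member called at 6 h was BID at 60.2 and 59.6 CPM (log2 0.44, adjusted P = 0.0197), a call that was lost without either p53 O6-meG library, or without pGFP replicate 2 or 3 (adjusted P 0.0564 to 0.135). The 2 libraries at 6 h differed in PMAIP1, with 79.9 CPM in replicate 1 and 42.4 CPM in replicate 3, and in BCL2L11, with 34.6 and 20.8 CPM. PMAIP1 was not called there (log2 0.59, adjusted P = 0.064), but was called without p53 O6-meG replicate 3 or either of 2 other libraries (adjusted P 0.000395 to 0.0411).

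At 24 h p53 O6-meG raised BIK to 12.1, 10.6 and 6.99 CPM (4.90-fold, adjusted P = 2.21e-08), BID to 84.2, 79.3 and 71.9 CPM (2.32-fold, adjusted P = 1.13e-09) and PMAIP1 to 60.3, 53.4 and 55.1 CPM (1.93-fold, adjusted P = 8.94e-05). BCL2L11 at 76.1, 40.4 and 44.5 CPM (1.79-fold, adjusted P = 0.0493) and BAD at 46.8, 48.6 and 45.2 CPM (1.2-fold, adjusted P = 0.0232) passed more narrowly. The BCL2L11 call was lost without any 1 of 16 libraries (adjusted P up to 0.279) and the BAD call without any 1 of 7 (up to 0.109). BMF at 2.31, 2.18 and 2.35 CPM was not called lower (log2 −0.47, adjusted P = 0.069), but was with the replicate block (−0.48, adjusted P = 0.00819), by DESeq2 (−0.50, adjusted P = 0.032) and without any 1 of 5 libraries (adjusted P 0.0388 to 0.0499).

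Against wild type p53, p53 O6-meG called 0 of 8 members at 6 h, where 2 (BCL2L11 and BAD) had an unadjusted p below 0.05, and 0 at 24 h, where none had. DESeq2 called 0 at both times. Over all genes 0% were called at 6 h and 0.00937% at 24 h. The 95% intervals of the log2 difference at 24 h were −0.31 to 0.32 for BBC3, −0.27 to 0.15 for BID, −0.59 to 0.28 for BIK, −0.55 to 0.13 for PMAIP1 and −0.94 to 0.34 for BCL2L11. At 6 h they were −0.39 to 0.33 for BBC3, −0.23 to 0.24 for BID, −0.72 to 0.04 for PMAIP1 and −1.54 to −0.05 for BCL2L11 (adjusted P = 0.492). A BCL2L11 level well below that of wild type p53 thus lies within these intervals. Without p53 O6-meG replicate 1, PMAIP1 was called lower than in wild type p53 at 6 h (adjusted P = 0.0199).

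With p53 TM, in which a repair inhibitor lets the lesion be transcribed, the BH3-only response was small at 6 h and partial at 24 h. At 6 h, 1 of 8 members rose over pGFP (0.183% of all genes were called), and at 24 h 4 of 8 did (10.6%). BBC3 read 2.08 and 2.70 CPM at 6 h, above all 3 pGFP libraries and 2.13-fold over their level (log2 1.09, SE 0.21, adjusted P = 0.0215). This call was lost without pGFP replicate 1 or 2, or without either p53 TM library (adjusted P 0.0508 to 0.376). At 24 h BBC3 read 11.3, 10.9 and 8.19 CPM (5.08-fold, log2 2.34, SE 0.18, adjusted P = 4.65e-10).

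The other 3 members over pGFP at 24 h were BIK at 5.73, 3.15 and 3.01 CPM (1.95-fold, adjusted P = 0.00704), PMAIP1 at 51.5, 39.7 and 47.4 CPM (1.59-fold, adjusted P = 0.00906) and BID at 48.5, 43.5 and 42.5 CPM (1.32-fold, adjusted P = 0.00942). All their p53 TM libraries lay above the highest pGFP library. Without p53 TM replicate 1 the adjusted P was 0.122 for BIK and 0.0638 for PMAIP1, and BID was lost without that library or pGFP replicate 1 (0.0582 to 0.0693). BCL2L11 at 67.1, 32.5 and 33.8 CPM overlapped pGFP and was called only with the replicate block (log2 0.52, adjusted P = 0.0353, against 0.57 and 0.325 without it). BAD (log2 0.01, adjusted P = 0.964) and BMF (−0.32, adjusted P = 0.365) were not called.

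Set directly against wild type p53, p53 TM had lower levels of 3 of 8 members at 6 h (11% of all genes were called) and of 5 of 8 at 24 h (21.2%). The members' median log2 difference was −0.53 at 6 h and −0.53 at 24 h, beside −0.02 and −0.01 over all genes. At 6 h BBC3 was 5.83-fold lower (log2 −2.54, SE 0.20, adjusted P = 3.71e-09), BIK 1.82-fold lower at 1.47 and 1.56 CPM (−0.86, SE 0.28, adjusted P = 0.0433) and PMAIP1 1.66-fold lower at 47.8 and 45.6 CPM (−0.73, SE 0.19, adjusted P = 0.00993). No p53 TM library reached the lowest wild type p53 library for these 3. The BIK call was lost without any 1 of 12 libraries (adjusted P up to 0.251), and the PMAIP1 call without either p53 TM library (0.0808 to 0.0992). BID at 51.7 and 43.3 CPM (−0.33, adjusted P = 0.0668) and BCL2L11 at 22.8 and 34.5 CPM (−0.75, adjusted P = 0.226) were not called. Their p53 TM libraries also lay below the lowest wild type p53 library (56.2 and 44.4 CPM). BID was called lower with the block (adjusted P = 0.0359) and with only the groups compared (0.0193), as was BCL2L11 (0.012 and 0.0305). The share of all genes whose groups did not overlap was not computed.

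At 24 h BIK showed the largest gap, 2.80-fold lower than in wild type p53 (log2 −1.48, SE 0.22, adjusted P = 3.39e-05). BID was 1.82-fold lower (−0.86, SE 0.10, adjusted P = 2.29e-06) and BBC3 1.70-fold lower (−0.76, SE 0.16, adjusted P = 0.000934), each with groups that did not overlap. PMAIP1 was 1.41-fold lower (−0.50, adjusted P = 0.0327), with p53 TM replicate 1 above the lowest wild type p53 library, and the call was lost without wild type p53 replicate 1 or p53 TM replicate 2 or 3 (0.0704 to 0.29). BAD, at 38.0, 39.8 and 40.6 CPM, was 1.2-fold lower (−0.26, adjusted P = 0.0347), a call lost without any 1 of 9 libraries (adjusted P up to 0.18). BCL2L11 was not called (−0.57, adjusted P = 0.217), but was lower with the block (−0.60, adjusted P = 0.00853) and without p53 TM replicate 1 (−0.99, adjusted P = 0.0288).

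The p53 TM and p53 O6-meG conditions used the same plasmid and differed in the repair inhibitor. Between them, BBC3 was the 1 member called at 6 h, 5.71-fold lower in p53 TM (log2 −2.51, SE 0.21, adjusted P = 1.99e-08), beside 4.04% of all genes. At 24 h 3 members were called (9.99% of all genes): BIK 2.51-fold lower (−1.33, adjusted P = 0.000432), BID 1.75-fold lower (−0.81, adjusted P = 4.7e-05) and BBC3 1.70-fold lower (−0.77, adjusted P = 0.00236). BAD was not called (−0.25, adjusted P = 0.0691), but was lower with the block (−0.25, adjusted P = 0.0104), by DESeq2 (−0.27, adjusted P = 0.0322) and with a minimum of 10 counts in every library (−0.26, adjusted P = 0.0384). The design had no wild type p53 or pGFP cells given the inhibitor, so lesion transcription and an effect of the inhibitor itself on these genes cannot be told apart. DDIT3, a stress-induced transcription factor, was higher at 6 h in p53 TM than in p53 O6-meG (log2 1.03, adjusted P = 0.00731), pGFP (1.22, adjusted P = 0.00414) and wild type p53 (1.25, adjusted P = 0.000125). FOXO3 (0.39, adjusted P = 0.00232) and ATF4 (0.51, adjusted P = 0.00431) were called higher than in wild type p53, but not than in pGFP or p53 O6-meG. Against wild type p53 this made 3 of 8 transcription factors known to drive BH3-only genes, beside 2.79% of all genes called higher. The part of these factors in the members' levels was not tested. The DDIT3 difference at 6 h rested on p53 TM libraries of 34.6 and 61.0 CPM. At 24 h mean DDIT3 was 43.2 CPM in p53 TM and 43.0 CPM in p53 O6-meG, and p53 O6-meG was called above pGFP.

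Expressed as a share of the mean rise that wild type p53 gave over pGFP, the members differed in how much p53 TM kept. This is a description and shares the pGFP and wild type p53 means. At 6 h BBC3 in p53 TM had 9.83 ± 3.41% (SD, n = 2) of the rise, PMAIP1 16.6 ± 4.21% and BIK −0.820 ± 4.995%. BID had 21.5 ± 38.0% at 6 h, with its libraries at 48.4% and −5.34%. At 24 h the shares were 53.7 ± 11.1% (n = 3) for BBC3, 47.2 ± 16.6% for PMAIP1, 23.0 ± 6.73% for BID and 21.5 ± 17.0% for BIK. BBC3 and PMAIP1 had thus reached about as large a share as each other by 24 h. BID and BIK, whose response grew between the times, had a smaller one by value. In p53 O6-meG at 24 h the shares were 100.2 ± 17.9% for BBC3, 93.4 ± 12.9% for BID, 87.3 ± 29.1% for BIK and 75.1 ± 10.0% for PMAIP1. Against these unpaired means BCL2L11 was too scattered to place, at 40.3 ± 54.5% in p53 TM and 65.8 ± 54.4% in p53 O6-meG at 24 h. Its replicate 1 was the highest library of every condition at that time. Shares within a replicate, which would take up this pairing, were not computed.

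**Figure D3:**
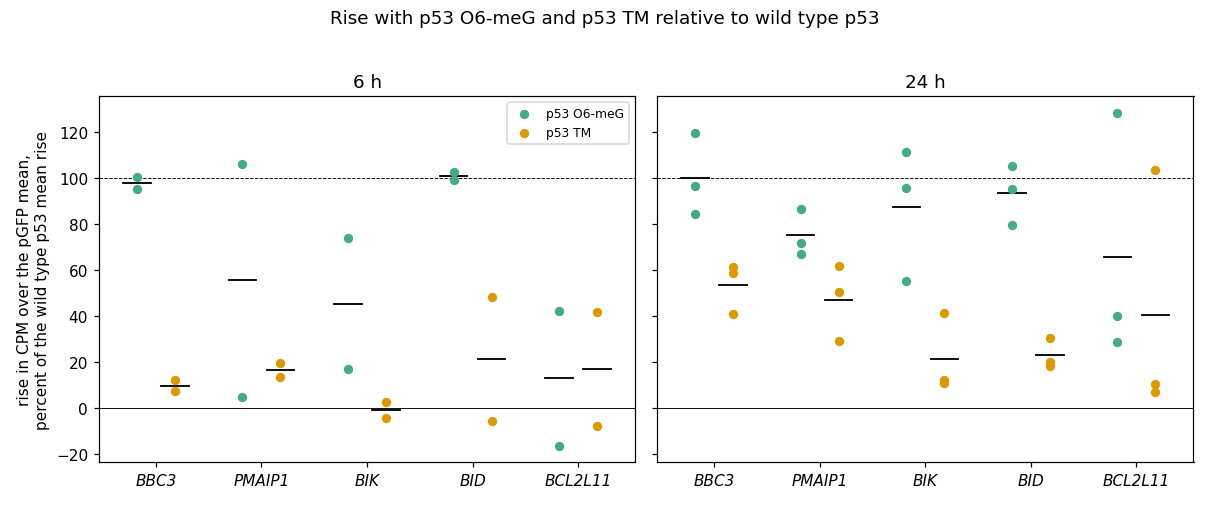
Share of the wild type p53 rise over pGFP, in percent, kept by p53 O6-meG and p53 TM for BBC3, PMAIP1, BIK, BID and BCL2L11 at 6 h and 24 h. Points are libraries, bars are means and the dashed line is 100%, the wild type p53 mean. BBC3 in p53 TM goes from a mean of 9.83% at 6 h to 53.7% at 24 h.

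The gap between p53 TM and wild type p53 narrowed with time for BBC3. Its change from 6 h to 24 h was 1.78 on the log2 scale (SE 0.25, 95% interval 1.27 to 2.29, adjusted P = 0.000175), and BBC3 was the 1 member of 8 called, beside 1.41% of all genes. BID moved in the opposite direction, its gap growing by value (−0.53, adjusted P = 0.0862), and with the block this passed the test (−0.57, adjusted P = 0.0085). It passed too by DESeq2 (adjusted P = 0.0118), with DESeq2 size factors (0.0421), with the conflicting libraries placed by title (0.0358) and without wild type p53 replicate 3 at 24 h (0.042). The BID rise with wild type p53 itself went from 15.6 CPM at 6 h to 47.8 CPM at 24 h. The mean share of that rise in p53 TM was about the same at both times (21.5 ± 38.0% and 23.0 ± 6.73%). For BIK the change was −0.62 (adjusted P = 0.58).

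Several members differed between the 6 h and 24 h pGFP libraries, which were separately sorted samples. In pGFP, 5 of 8 members were called between 24 h and 6 h, beside 41.1% of all genes. BMF was 4.46-fold higher at 24 h (log2 2.16, SE 0.21, adjusted P = 1.78e-08) and BBC3 1.76-fold higher (0.81, SE 0.20, adjusted P = 0.0022). PMAIP1 (−0.48, adjusted P = 0.0244), HRK (−0.63, adjusted P = 0.0344) and BID (−0.38, adjusted P = 0.00416) were lower. The HRK libraries read 3.20, 3.21 and 3.31 CPM at 6 h and 1.43, 2.27 and 2.55 CPM at 24 h. The HRK call was lost without any 1 of 6 libraries (adjusted P up to 0.194) and the PMAIP1 call without any 1 of 4 (up to 0.0759). BAD was not called (0.19, adjusted P = 0.0844), but was higher with the block (0.19, adjusted P = 0.0245), by DESeq2 (0.24, adjusted P = 0.0317), under 3 other alternatives (adjusted P 0.0148 to 0.0401) and without any 1 of 3 libraries (0.0405 to 0.049).

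**Figure D4:**
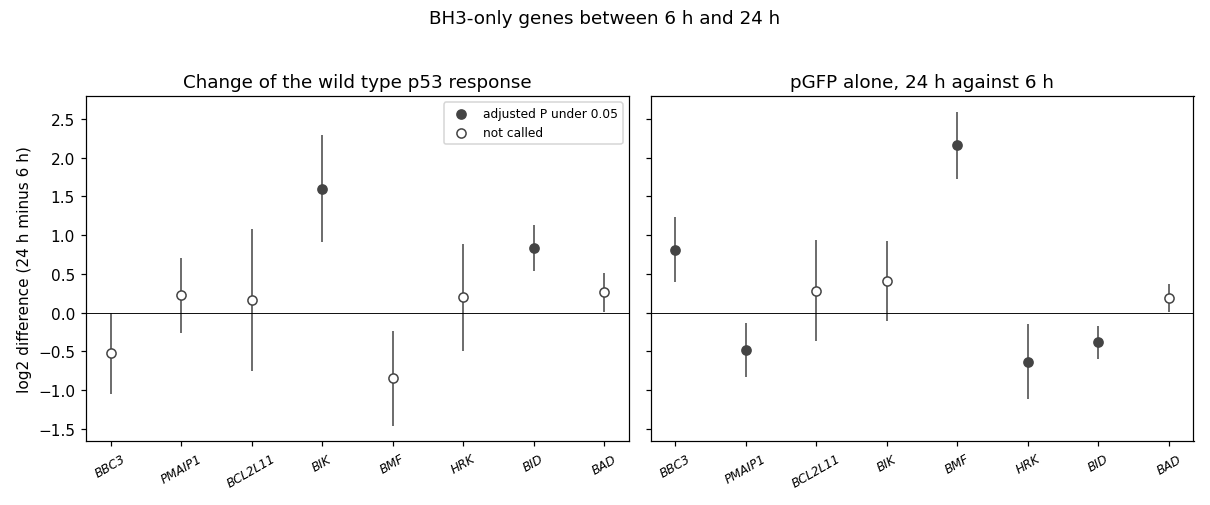
Log2 change between 6 h and 24 h for each BH3-only gene with 95% intervals, as the change of the wild type p53 response and as the level in pGFP at 24 h against 6 h. The response of BIK (1.60) and BID (0.83) grew, and BMF rose in pGFP by 2.16.

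The partners of the BH3-only proteins were described from lists of the pathway. Of the 3 pore-forming effectors, BAX and BAK1 rose with wild type p53 at 6 h (log2 1.05, adjusted P = 8.56e-09, and 1.25, adjusted P = 3.05e-07) and at 24 h (1.56, adjusted P = 4.76e-12, and 1.67, adjusted P = 8.24e-10), while BOK did not pass. Of 6 prosurvival genes, 4 were measured well enough to test, and MCL1 alone rose, by 0.21 (adjusted P = 0.0475) and 0.26 (adjusted P = 0.00313). BCL2A1, the other partner of NOXA, had 0 to 7 counts in a library. In the apoptosome, APAF1 rose at both times (2.25, adjusted P = 6.19e-08, and 2.43, adjusted P = 4.92e-09), and CASP9 (−0.74, adjusted P = 1.79e-05) fell at 24 h. Of the 4 atypical BH3 genes tested, edgeR called 0 at either time, with 0 at 6 h and 2 at 24 h under an unadjusted p of 0.05.

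At 6 h p53 TM had lower levels of BAX (log2 −0.84), BAK1 (−1.21) and APAF1 (−2.21) against wild type p53. In p53 TM at 24 h BAX (log2 1.41), BAK1 (1.2) and APAF1 (1.58) were called higher than in pGFP, as was MCL1 (0.23). BAK1 (−0.48, adjusted P = 0.0131) and APAF1 (−0.86, adjusted P = 0.00377) stayed below wild type p53. BCL2 was also called lower than with wild type p53 at 24 h, and CASP9, XIAP, HUWE1, FOXO3 and E2F1 higher. Against pGFP at that time, BNIP3L was also called higher and E2F1 lower. Of 8 other transcription factors known to drive BH3-only genes, edgeR called 0 between wild type p53 and pGFP at 6 h (1 had an unadjusted p below 0.05), and E2F1 (−0.80, adjusted P = 1.18e-07), TP73 (−0.60, adjusted P = 0.00131) and FOXO3 (−0.25) fell at 24 h. With RW mutant p53 no gene of these lists was called by edgeR or had an unadjusted p below 0.05.

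Across the 10 group means, the genes whose log2 levels followed a member most closely were, for BBC3, PLK3 (Pearson r = 0.996), ZNF79 (0.995) and SLC52A1 (0.993). For PMAIP1 they included EXO5 (0.982) and SOCS4 (0.980), for BCL2L11 KCNT1 (0.984), SUSD5 (0.984) and SMTNL2 (0.979), and for BIK ARRB1 (0.998) and CC2D1A (0.997). For BID they were TKT (0.990), CAMKMT (0.986) and SDC4 (0.986), and for BMF DLGAP3 (0.993), HFE (0.993) and GPRC5B (0.991). HRK was followed by RBM8A, GLRX2 (both 0.988) and ELOF1 (0.987), and BAD by MIR3193 (0.983), PPP1R18 (0.978) and SMIM29 (0.974). The points share conditions and libraries, and such values are the highest of 21335 genes. Among the members, BCL2L11 and BIK (0.916) and PMAIP1 and BID (0.858) were the most alike, and BMF and HRK were opposed (−0.942).

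The 2 libraries with conflicting labels lay far apart. The library whose genotype field gives p53 O6-meG read 1.77 CPM of BBC3, 1.21 CPM of BIK and 46.7 CPM of BID, with 50.2 CPM of CDKN1A. The library whose genotype field gives p53 TM read 12.4 CPM of BBC3, 2.29 CPM of BIK and 60.9 CPM of BID, with 250 CPM of CDKN1A. The first had 5.05% of the BBC3 rise given by wild type p53, beside 7.42% and 12.2% in the p53 TM libraries with agreeing labels. The second had 87.8%, beside 100.4% and 95.1% in those of p53 O6-meG. Which label is right was not tested. If the 2 libraries are placed by the genotype field, p53 TM has 0 of 8 members called against pGFP and 0 against wild type p53 at 6 h (BBC3 log2 2.33, SE 0.60, adjusted P = 0.271, and −1.30, SE 0.52, adjusted P = 0.215). If they are placed by the start of the title, 1 and 4 members are called. The statements on p53 TM and p53 O6-meG at 6 h therefore rest on the 2 libraries of each whose labels agree.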

How the data were processed

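RNA of GFP-sorted H1299 cells was sequenced by the authors as ribosomal RNA-depleted, stranded total RNA (single reads). Per the study's methods, reads were aligned with STAR to hg38 and counted per GENCODE v27 gene with featureCounts. The strand setting of the counting was not given in the sources used here. The deposited values used are raw counts per gene, 32302699 to 71950532 per library (median 44424643). A normalized table was not used. The authors' own tests used DESeq2.

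The members and gene lists were chosen with earlier results of these data known. Groups came from the labels. Genes with low counts were removed with filterByExpr and 21335 of 39359 genes were tested with edgeR 4.0.16 in R 4.3.3 (quasi-likelihood, TMM, 28 libraries in 1 fit, 18 residual degrees of freedom), with Benjamini-Hochberg adjustment over all of them. The rule for named genes was every member, called genes of the fixed lists and the 3 genes most like each member over the group means of log2 CPM (2 without a symbol are not printed). Of the partner and transcription factor lists, not every called gene is printed, such as those called in pGFP between the times. CPM are counts relative to the TMM-scaled library size, and exon lengths and positions are from GENCODE v44 on hg38. Genes that overlap a member were chosen after the data were seen. The level of the transfected gene and of 1 other gene of the pathway is not reported here.

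Deviations from the group mean were compared between libraries with the same replicate number. At 24 h all 30 of 30 pairs correlated above 0.1 (0.182 to 0.612, median 0.422), so the numbers were taken as pairing the libraries and the blocked value is given where it changes a call. At 6 h 11 of 23 did (median 0.0800). No pair of libraries of 1 group agreed within counting noise (chi-square per degree of freedom 6.08 to 47.4), and p-values measure only the spread between these libraries, which may be technical.

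Alternatives were DESeq2 1.42.0, its size factors, other filters, the replicate block, a fit restricted to the groups of a comparison, both placements of the 2 libraries and leaving out each library. In simulated counts for wild type p53 against pGFP at 24 h (20505 genes), edgeR recovered 72 of 100 genes changed 2-fold and 96 of 100 changed 4-fold, with 11 false calls. The simulation changed only 200 genes and held no effect shared by replicate number. In the data 34.9% of genes were called in this comparison, so these figures may not hold for them.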

Additional observations from a re-analysis of the deposited data

Results flagged for a closer look

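The response of BIK and BID to wild type p53 differed between the times by a test of the difference itself, with log2 changes of 1.60 and 0.83 from 6 h to 24 h, and both were higher in 3 of 3 wild type p53 libraries than in any pGFP library at each time. The gap between p53 TM and wild type p53 differed between the times for BBC3 in the same kind of test, by 1.78 on the log2 scale.

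The 2 libraries at 6 h that enter no comparison held member levels above the highest of the 3 pGFP libraries at 6 h. The library whose genotype field gives p53 O6-meG did so for BBC3 (1.77 CPM), PMAIP1 (54.4 CPM), BCL2L11 (32.4 CPM) and HRK (3.37 CPM). The library whose genotype field gives p53 TM did so for BBC3 (12.4 CPM), PMAIP1 (80.3 CPM), BCL2L11 (38.8 CPM), BIK (2.29 CPM), BMF (0.910 CPM), HRK (3.34 CPM) and BID (60.9 CPM). The HRK values lay just above the pGFP maximum of 3.31 CPM. A single library can exceed the highest of 3 others without any effect. The share of all genes for which these libraries did so was not computed, so the lists are a description only.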

How the results depend on the processing

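Over 4896 member values recomputed under alternatives, none of the 1584 belonging to a called result changed sign, 1474 stayed called and 110 lost the call, while 58 that were not called became so. Of the 1584, 1232 came from leaving out 1 library, mostly one outside the groups compared, and 79 of these lost the call. Under the other alternatives 31 of 352 lost it. Counts of members called moved by over 1.5 times as follows. With the replicate block, p53 TM against wild type p53 at 6 h went from 3 to 5, p53 O6-meG against pGFP at 6 h from 2 to 4, p53 O6-meG against wild type p53 at 6 h from 0 to 1, p53 TM against p53 O6-meG at 6 h from 1 to 2, and the change of the p53 TM gap between times from 1 to 2. The 6 h numbers were not shown to pair the libraries. The change of the gap was also 2 with DESeq2 size factors, the DESeq2 Wald test and placement by title. Without a filter on low counts, p53 TM against wild type p53 at 24 h and pGFP at 24 h against 6 h each went from 5 to 3. With a fit of only the groups compared, p53 TM against wild type p53 went to 5 at 6 h and 3 at 24 h, and p53 TM against p53 O6-meG at 24 h from 3 to 1, with BBC3 (adjusted P = 0.0655) and BIK (0.0756) lost. With the 2 conflicting libraries placed by genotype field, the counts were 1 for p53 O6-meG against pGFP at 6 h, 0 for p53 TM against each of pGFP, wild type p53 and p53 O6-meG at 6 h, 2 for p53 TM against wild type p53 at 24 h, 0 for the change of the gap and 3 for pGFP between times. Placed by title, p53 TM against p53 O6-meG at 6 h was 2. The causes were not tested.

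Leaving out each library in turn, the counts ran from 2 to 5 for wild type p53, 1 to 3 for p53 O6-meG and 0 to 1 for p53 TM against pGFP at 6 h, and from 1 to 3 for p53 TM and 0 to 1 for p53 O6-meG against wild type p53 at 6 h. They ran from 1 to 2 for p53 TM against p53 O6-meG at 6 h, 1 to 4 for p53 TM against pGFP and 3 to 5 for p53 TM against wild type p53 at 24 h, 1 to 2 for the change of the gap and 3 to 6 for pGFP between times. BCL2L11 against pGFP at 6 h was called for wild type p53 with only the groups compared (adjusted P = 7.62e-07), the replicate block (0.000463), placement by title (0.0466), DESeq2 (0.0488) and at least 10 counts in every library (0.0495), and without any 1 of 7 libraries (0.0265 to 0.0498). With 2 libraries in p53 O6-meG and p53 TM at 6 h, leaving out 1 assumes that the other varies like the other groups. The fewest reads were behind BMF, HRK, BIK and BBC3, and the largest standard error in wild type p53 against pGFP was that of BCL2L11 (0.31).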
